A study of Mus musculus with 9 samples.

Results

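Integrins and laminins are the receptors and a main ligand family through which cells hold on to the basement membrane, and their transcripts were measured here in tumours of the mouse pancreatic neuroendocrine tumour line N134. The genes were taken by name: every row of the expression table whose symbol begins as an integrin alpha chain, an integrin beta chain or a laminin alpha, beta or gamma chain was kept, and integrin-binding proteins were left out. The rule selected 39 rows of 22053, which stand for 38 genes, because Itgam has a second row near 0 that was dropped. They comprise 18 integrin alpha, 9 integrin beta, 5 laminin alpha, 3 laminin beta and 3 laminin gamma genes.

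RNA-seq had been made from 9 tissue samples in 3 groups of 3. The first group was subcutaneous tumours of N134 cells (N134 tumours 1 to 3). The second was subcutaneous tumours of N134-RHAMMB, the same line labelled for RHAMMB, an isoform of the hyaluronan receptor RHAMM (N134-RHAMMB tumours 1, 2 and 4, as numbered by their titles). The third was liver metastases of N134-RHAMMB (metastases 1 to 3). All hosts were immunodeficient NOD.Cg-PrkdcscidIl2rgtm1Wjl/SzJ (NSG) mice, which lack mature lymphocytes, and no label gives their age. Subcutaneous injection or tail vein injection was used, so the organ and the route of injection cannot be told apart in the comparisons with metastases. Metastases and N134 tumours also differ in the line, so in that comparison line, organ and route cannot be told apart. Liver metastases of N134 itself were not analysed here. The labels do not say whether a line is 1 clone, nor that the samples of a group came from separate animals, so p-values measure the spread between these samples only.

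Each integrin is a pair of 1 alpha and 1 beta chain that spans the cell membrane, with the combination setting whether it binds laminin, collagen, RGD-bearing proteins such as fibronectin and vitronectin, or counter-receptors on leukocytes. Laminins are trimers of 1 alpha, 1 beta and 1 gamma chain that polymerise into the basement membrane under epithelia, around islets and around blood vessels, and the alpha chain carries the main integrin-binding domain. In pancreatic islets the vessels supply much of the basement membrane, while hepatic sinusoids have little of it.

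Sequencing depth, estimated from the smallest steps in the deposited values, was lowest in N134-RHAMMB tumour 4 (14.3 M fragments) and highest in metastasis 2 (18.4 M), so that 1 fragment on a transcript of 2 kb corresponds to 0.0272 to 0.035 FPKM (fragments per kilobase of transcript and per M mapped fragments). Beta cell and neuroendocrine transcripts were abundant in all 9 libraries, with none of the 8 genes of that list passing the test in any comparison at adjusted p below 0.05 (limma; at unadjusted p below 0.05, 2, 1 and 0 passed in the order used below, and 2, 1 and 0 passed after adjustment with library weights). Mouse Hmmr, the gene of RHAMM, stood at 39.2 to 44.9 FPKM in N134 tumours, 49.2 to 51.3 in those of N134-RHAMMB, and 36.0 to 43.3 in metastases. Hepatocyte genes passed as higher in metastases, 10 of 10 against N134-RHAMMB tumours and 9 of 10 against N134 tumours. Some of them, Ahsg and Fga included, had reached the level needed for testing through metastases alone, so they had to differ in order to be tested. Their summed levels were 5412 to 5611 FPKM, against 327 to 463 in the 6 subcutaneous tumours. Most of the subcutaneous sum came from 1 gene of the list, Ttr, at 282 to 427 FPKM there and 480 to 574 in metastases. Alb was at 0.481 to 1.60 FPKM in the subcutaneous samples and at 1410 to 1609 in metastases. Skeletal muscle genes reached a sum of 147 FPKM in N134-RHAMMB tumour 2 and 176 in tumour 4 and at most 19.1 elsewhere, and metastasis 2 stood apart from metastases 1 and 3 on the second principal component, which held 13.1% of the variance. Results that rest on these libraries are given with and without them below. Transcripts of host and tumour cells are both of mouse origin and were counted together, and in bulk tissue fewer cells of a type and less RNA per cell cannot be told apart.

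Of the 38 genes, 17 stood at 1 FPKM or more in all 9 libraries and 11 were under 1 FPKM in all of them. A gene was tested where it reached 1 FPKM in at least 3 libraries, which 23 of the 38 did: 12 integrin alpha, 5 integrin beta, 3 laminin alpha, 2 laminin beta and 1 laminin gamma. Tests were made with limma on log2(FPKM + 1), a scale that understates the change of low genes, with Benjamini-Hochberg adjustment over all 12854 genes tested and a threshold of 0.05. The 3 comparisons share groups and are therefore not independent of each other.

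**Figure D1:**
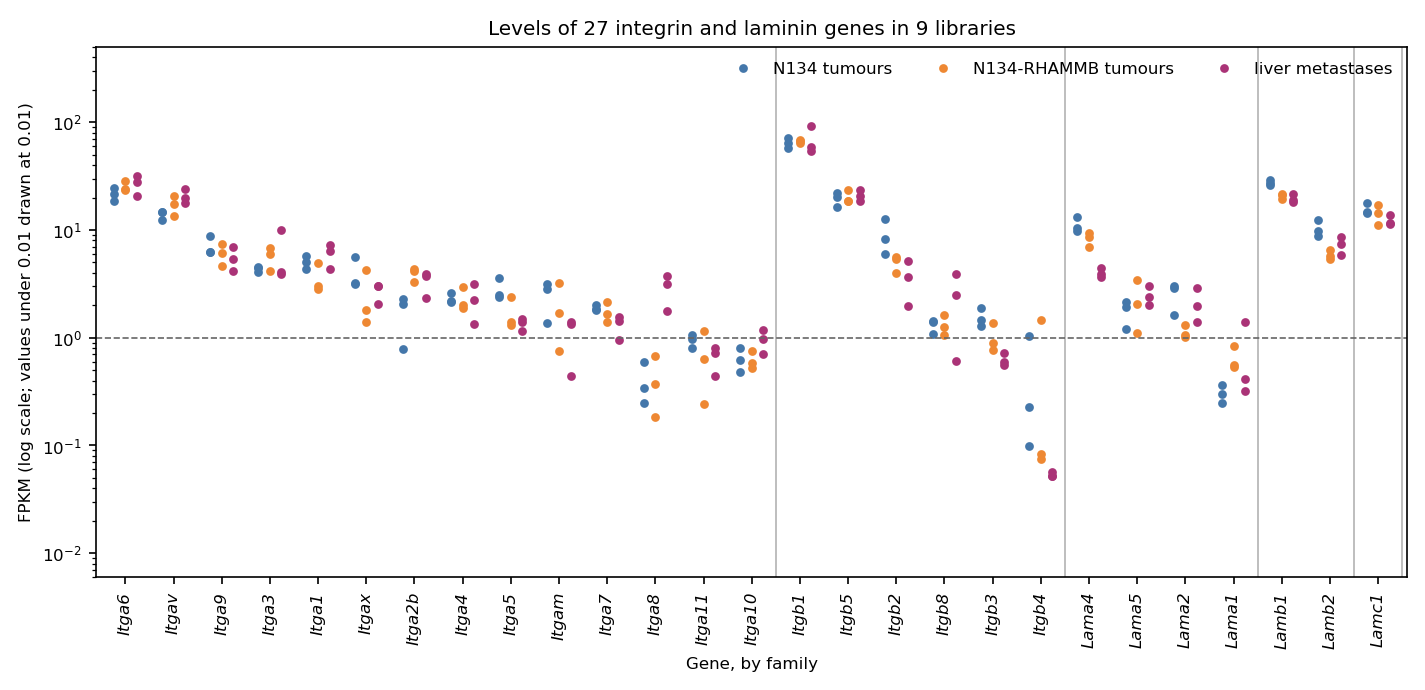
FPKM (logarithmic axis) of the 27 integrin and laminin genes that reached 1 FPKM in at least 1 library, in each of the 9 libraries, by family and in falling order of mean; each point is 1 library, coloured by group, and the dashed line marks 1 FPKM. Itgb1 is the most abundant in every library, at 53.9 to 91.8 FPKM, and 17 genes lie on or above the dashed line in all 9 libraries.

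Between N134-RHAMMB and N134 tumours, which were grown at the same site, 0 of 23 integrin and laminin genes passed, where 0.194% of all tested genes did (25 of 12854). At unadjusted p below 0.05 there were 7 of 23, against 12.8% of all genes. Itga2b was higher and Itga5, Itgb2, Lama2, Lama4, Lamb1 and Lamb2 were lower in N134-RHAMMB tumours. Markers of fibroblasts and macrophages were lower in the same comparison: 9 of 10 fibroblast and 9 of 10 macrophage genes had an unadjusted p below 0.05. Of these, 2 fibroblast genes and no macrophage gene passed after adjustment. Other lists of cell markers differed from these. The same unadjusted threshold was met by 1 of 10 endothelial and 2 of 8 pericyte and stellate cell genes. It was met by 0 of 3 adipocyte and 0 of 3 Schwann cell genes. In skeletal muscle 2 of 2 tested genes met it, and these were higher in N134-RHAMMB tumours. The part of any of these cells in the 7 differences was not tested. The median difference was -0.14 over the 23 genes and 0.01 over all genes (log2). With libraries weighted by their fitted spread, 10 of 23 passed the same adjusted threshold, where 20.5% of all genes did. In the 2 comparisons with metastases below, library weights called 15.2% (against N134-RHAMMB tumours) and 12.7% (against N134 tumours) of all genes. The lowest adjusted p of the 23 was 0.151, for Lamb2 (limma, log2 difference -0.71 ± 0.17 SE).

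Between metastases and N134-RHAMMB tumours, 2 of 23 passed, where 6.56% of all genes did: the integrin alpha chain Itga8 rose and the laminin alpha chain Lama4 fell. The median difference was -0.02 over the 23 genes and -0.06 over all genes. Between metastases and N134 tumours, 6 of 23 passed, where 9.93% of all genes did: Itga8 rose, and Lama4, Itgb2, Itga5, Itgb3 and Lamb1 fell. The median difference was -0.19 over the 23 genes and -0.03 over all genes. Itga8 had reached the filter through the metastases alone and Itgb3 through N134 tumours with 1 other library, so that these 2 had to differ in order to be tested at all. When 1 library was left out, the count of 6 against N134 tumours fell to between 1 and 5. Of these 6, Itga8 and Lama4 kept their call in every alternative that tested them.

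**Figure D2:**
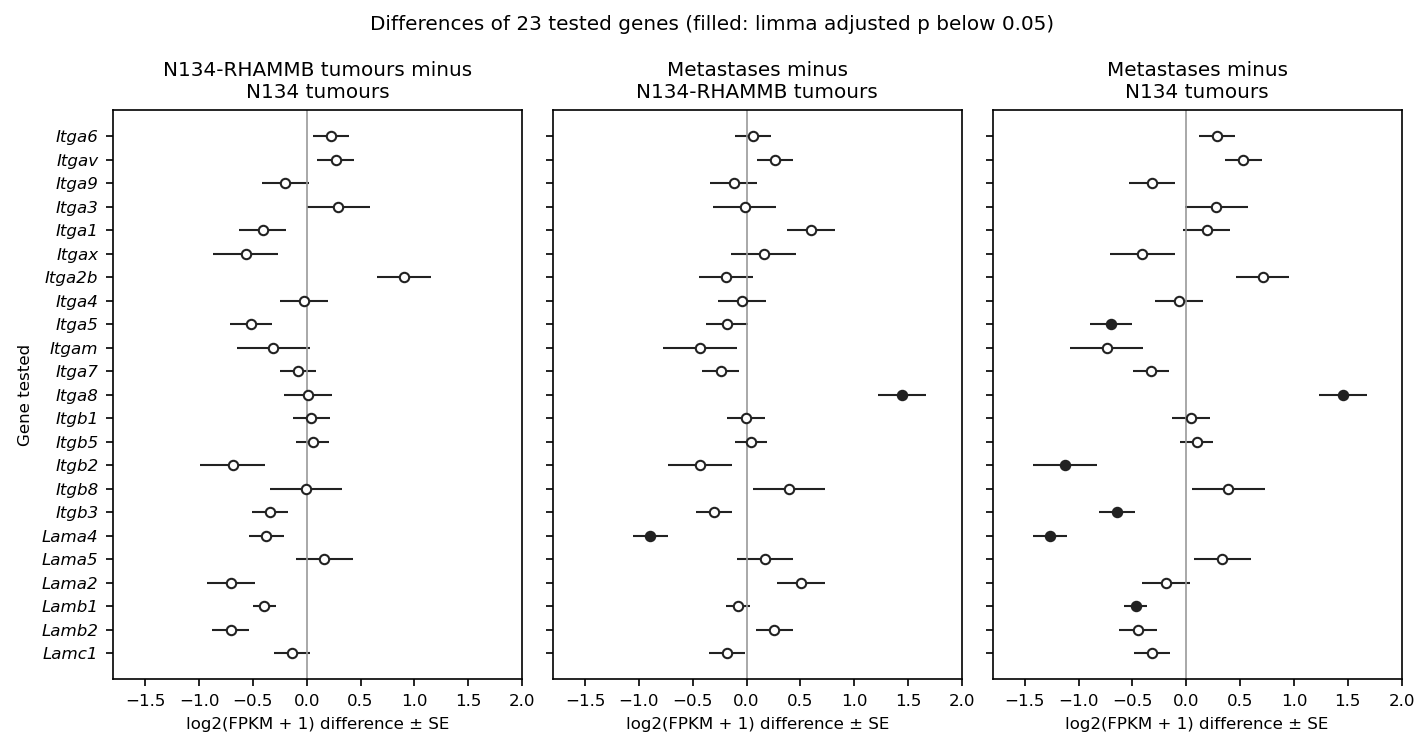
Fitted differences in log2(FPKM + 1), with standard errors, of the 23 tested genes in the 3 comparisons (3 libraries per group); filled points passed limma's adjusted threshold of 0.05. No point is filled on the left, 2 are in the middle and 6 on the right, with Itga8 farthest to the right and Lama4 farthest to the left in both panels of metastases.

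Among integrin alpha chains, the receptors for laminin and for RGD ligands dominated. Itga6, which pairs with beta 1 or beta 4 as a laminin receptor, measured 24.6, 21.6 and 18.6 FPKM in N134 tumours 1 to 3, 23.7, 23.97 and 28.3 in N134-RHAMMB tumours 1, 2 and 4, and 27.8, 20.8 and 31.9 in metastases 1 to 3. The groups overlapped in every comparison, and no difference passed (limma adjusted p of 0.619, 0.92 and 0.383 in the order above). Itgav, the alpha chain of the vitronectin receptors, measured 14.7, 14.7 and 12.4 FPKM in N134 tumours, 17.6, 13.5 and 20.5 in N134-RHAMMB tumours and 20.0, 24.3 and 17.8 in metastases. All 3 metastases lay above all 3 N134 tumours, with a log2 difference of 0.53 ± 0.17 (SE) that did not pass (limma adjusted p = 0.0852); it passed after median-of-ratios scaling and after quantile normalization. Itga6 and Itgav together made up 46.7 to 61.3% of all integrin alpha FPKM in the 9 libraries.

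Itga8 and Itgb3 were the called integrins whose levels in metastases did not overlap with those of any tumour, Itga8 lying above and Itgb3 below. Because Itga8 reached the filter through metastases alone, its tests below describe a gene that had to differ. Itga8 is the alpha chain that pairs with beta 1 to bind nephronectin and other RGD proteins, it is known from mesenchymal cells such as hepatic stellate cells, and it lies on the minus strand of chromosome 2 (GRCm38 chr2:12106632-12301922). Its level was 0.343, 0.596 and 0.246 FPKM in N134 tumours and 0.676, 0.185 and 0.372 in N134-RHAMMB tumours, against 3.74, 3.16 and 1.79 in metastases. Every metastasis lay above every subcutaneous tumour, and the subcutaneous groups overlapped. The log2 difference was 1.44 ± 0.22 (SE) against N134-RHAMMB tumours (limma adjusted p = 0.00192) and 1.45 ± 0.22 against N134 tumours (limma adjusted p = 0.00165). The call against N134 tumours held in each fit that tested the gene. Against N134-RHAMMB tumours it held without any 1 library, with the filter kept over all 9 libraries where a metastasis was left out, but not without N134-RHAMMB tumours 2 and 4 together, when 1 tumour is left and assumed to vary like the others (1.18, limma adjusted p = 0.139). An antisense gene, E030013I19Rik, lies over Itga8, and since strand is not given in the sources used here, reads of the 2 could not be separated.

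Genes of pericytes and stellate cells were compared beside it. Of the 8 tested genes of that list, 1 passed as higher in metastases than in N134-RHAMMB tumours, the smooth muscle myosin Myh11 (0.88, limma adjusted p = 0.0447; 0.0539 to 0.199 without any 1 library other than N134-RHAMMB tumour 4 and metastasis 2). The summed level of the list was 173 to 233 FPKM in N134 tumours, 99.8 to 179 in those of N134-RHAMMB, and 133.99 to 212 in metastases. Lrat, the retinol esterifying enzyme that marks hepatic stellate cells, was under the filter and was not tested. It was at 0 in 4 subcutaneous tumours and at most 0.0309 FPKM in the others, and at 1.36, 1.28 and 0.495 in metastases. Metastasis 3 was the lowest of the 3 for Lrat and Itga8, whereas metastasis 2 was the lowest for the summed list and for the smooth muscle actin gene Acta2 (74.2, 30.3 and 73.9 FPKM in metastases 1 to 3, with 83.6 ± 25.5, 43.0 ± 15.7 and 59.5 ± 25.3 in the 3 groups, SD, n = 3). The part of these cells in the Itga8 result was not tested. Npnt, which encodes nephronectin, fell by 1.11 on the log2 scale from N134 tumours to metastases (limma adjusted p = 0.00631), with 32.4 ± 7.51 and 14.6 ± 3.95 FPKM (SD, n = 3 each).

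Itga5, the alpha chain of the classical fibronectin receptor, was a low integrin that fell. It measured 2.41, 3.58 and 2.52 FPKM in N134 tumours, 1.39, 1.31 and 2.38 in N134-RHAMMB tumours and 1.40, 1.15 and 1.49 in metastases. N134 tumours lay above both other groups, narrowly so for N134-RHAMMB tumour 4, and those 2 groups overlapped. The log2 difference between metastases and N134 tumours was -0.70 ± 0.19 (SE, limma adjusted p = 0.0477). That call was lost without any 1 of N134 tumours 1, 2 and 3, N134-RHAMMB tumours 1 and 2 and metastases 1, 2 and 3 (limma adjusted p of 0.0572 to 0.186) and stayed only without N134-RHAMMB tumour 4 (0.0307).

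Itga2b, the alpha chain of the platelet fibrinogen receptor, was higher in N134-RHAMMB tumours. Its levels were 0.786, 2.05 and 2.30 FPKM in N134 tumours, 4.12, 4.31 and 3.30 in N134-RHAMMB tumours and 3.90, 2.36 and 3.76 in metastases. N134 tumours were lowest without overlap, but neither difference passed, at 0.90 ± 0.25 (SE, limma adjusted p = 0.184) and 0.71 ± 0.25 (limma adjusted p = 0.12). Pf4, a platelet chemokine, measured 41.2 ± 30.8, 18.04 ± 3.95 and 6.71 ± 0.554 FPKM (SD, n = 3) in the same order of groups, and fell from N134 tumours to metastases by 2.11 (limma adjusted p = 0.0244; 0.0507 to 0.1 without any 1 of N134 tumours 1 and 2 and the 3 metastases). The part of platelets in the values of Itga2b was not tested.

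The collagen receptor chain Itga1 was at 4.37 to 5.71 FPKM in N134 tumours, 2.86 to 4.96 in those of N134-RHAMMB, and 4.32 to 7.23 in metastases, and the difference between the last 2 groups, 0.60, did not pass (limma adjusted p = 0.184). Without metastasis 2 it did not pass either (adjusted p = 0.0628), except with the filter kept over all 9 libraries (0.0472). Itga3, a laminin receptor chain, was at 10.03 FPKM in metastasis 3 and at 3.88 to 6.78 in the other 8 libraries. The other tested alpha chains, Itga4, Itga7, Itga9, Itgam and Itgax, had no call in any of the 3 comparisons. Of the 6 alpha chains under the filter, Itga10 and Itga11 reached 1 FPKM in 1 and 2 libraries, and Itga2, Itgad, Itgae and Itgal in none.

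Among beta chains, Itgb1, the common partner of most matrix-binding alpha chains, was the most abundant of all 38 genes. It measured 64.8, 71.1 and 58.0 FPKM in N134 tumours, 64.1, 66.7 and 68.8 in N134-RHAMMB tumours and 58.9, 91.8 and 53.9 in metastases. Metastasis 2 was the highest and metastases 1 and 3 lay among or below the tumours, and no fitted difference was larger than 0.04 on the log2 scale, with a standard error of 0.18. Itgb5, a partner of Itgav, measured 22.3, 20.3 and 16.2, then 18.7, 18.8 and 23.7, then 23.5, 18.7 and 20.7 FPKM in the same order, and its groups overlapped throughout. Itgb1 and Itgb5 together made up 85.0 to 96.9% of integrin beta FPKM.

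Itgb2, the beta chain shared by the leukocyte integrins, fell from N134 tumours to metastases. Its levels were 8.28, 12.7 and 5.96 FPKM in N134 tumours, 5.62, 3.95 and 5.41 in N134-RHAMMB tumours and 5.11, 1.98 and 3.68 in metastases. All N134 tumours lay above all other libraries, and metastases and N134-RHAMMB tumours overlapped. The log2 difference between metastases and N134 tumours was -1.12 ± 0.30 (SE, limma adjusted p = 0.0402), and the call was lost without any 1 of N134 tumours 1 and 2, N134-RHAMMB tumours 1, 2 and 4 and metastases 2 and 3 (limma adjusted p of 0.0524 to 0.154). Of its alpha partners, Itgam and Itgax had no call, and Itgal and Itgad were under the filter and not tested. Summed with Itgb2 the 4 reached 11.1 to 22.7, 6.35 to 12.1 and 5.16 to 10.2 FPKM in the 3 groups.

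Macrophage genes were compared beside Itgb2. In metastases against N134 tumours 8 of 10 macrophage genes fell, where 9.93% of all genes passed and 4.23% passed as lower. The calls of C1qa and Csf1r were each lost in 4 fits without 1 library, that of Lyz2 in 2 and that of Cd68 in 1. No macrophage gene passed in the other 2 comparisons (limma). At unadjusted p below 0.05 there were 9 between the subcutaneous groups and 5 between metastases and N134-RHAMMB tumours. With library weights, 7 and 2 passed. In FPKM, the summed level of the list was 426 to 722 FPKM in N134 tumours, 312 to 418 in those of N134-RHAMMB, and 194 to 334 in metastases. Divided by Csf1r, a receptor of macrophages, Itgb2 was 0.676 ± 0.173 in N134 tumours, 0.631 ± 0.072 in N134-RHAMMB tumours and 0.521 ± 0.168 in metastases (SD, n = 3), and the groups overlapped. The part of macrophages in the Itgb2 result was not tested. Lymphocyte genes summed to at most 1.29 FPKM in any library.

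Itgb3, the other main partner of Itgav and the partner of Itga2b, was low and also fell. It measured 1.46, 1.89 and 1.28 FPKM in N134 tumours, 0.888, 0.773 and 1.38 in N134-RHAMMB tumours and 0.715, 0.591 and 0.562 in metastases. Metastases lay below both other groups without overlap. The difference passed against N134 tumours alone (-0.64 ± 0.17 SE, limma adjusted p = 0.0361) and was -0.30 against N134-RHAMMB tumours (limma adjusted p = 0.434). The call was lost without any 1 of N134 tumours 1, 2 and 3, N134-RHAMMB tumour 1 and metastases 1, 2 and 3 (limma adjusted p of 0.0578 to 0.15).

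Itgb8, another partner of Itgav, was uneven among metastases, at 3.91, 0.613 and 2.498 FPKM against 1.06 to 1.62 in the 6 tumours. Metastases 1 and 3 were above every tumour and metastasis 2 below every tumour, and no difference passed with all libraries (limma adjusted p of 0.648 and 0.575 against the 2 tumour groups); without metastasis 2 it passed in both comparisons (limma adjusted p = 0.0392 against N134-RHAMMB and 0.0284 against N134 tumours). Itgb4, which pairs with Itga6 in hemidesmosomes, was at 1.04 FPKM in N134 tumour 3 and 1.47 in N134-RHAMMB tumour 1 and at 0.0515 to 0.226 in the other 7 libraries. The basal keratinocyte gene Krt14 was highest in other libraries, N134 tumour 2 (4.99 FPKM) and N134-RHAMMB tumour 2 (4.495). Itgb7 stayed under 1 FPKM, and Itgb2l and Itgb6 were listed at 0 in 5 and 4 libraries.

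**Figure D3:**
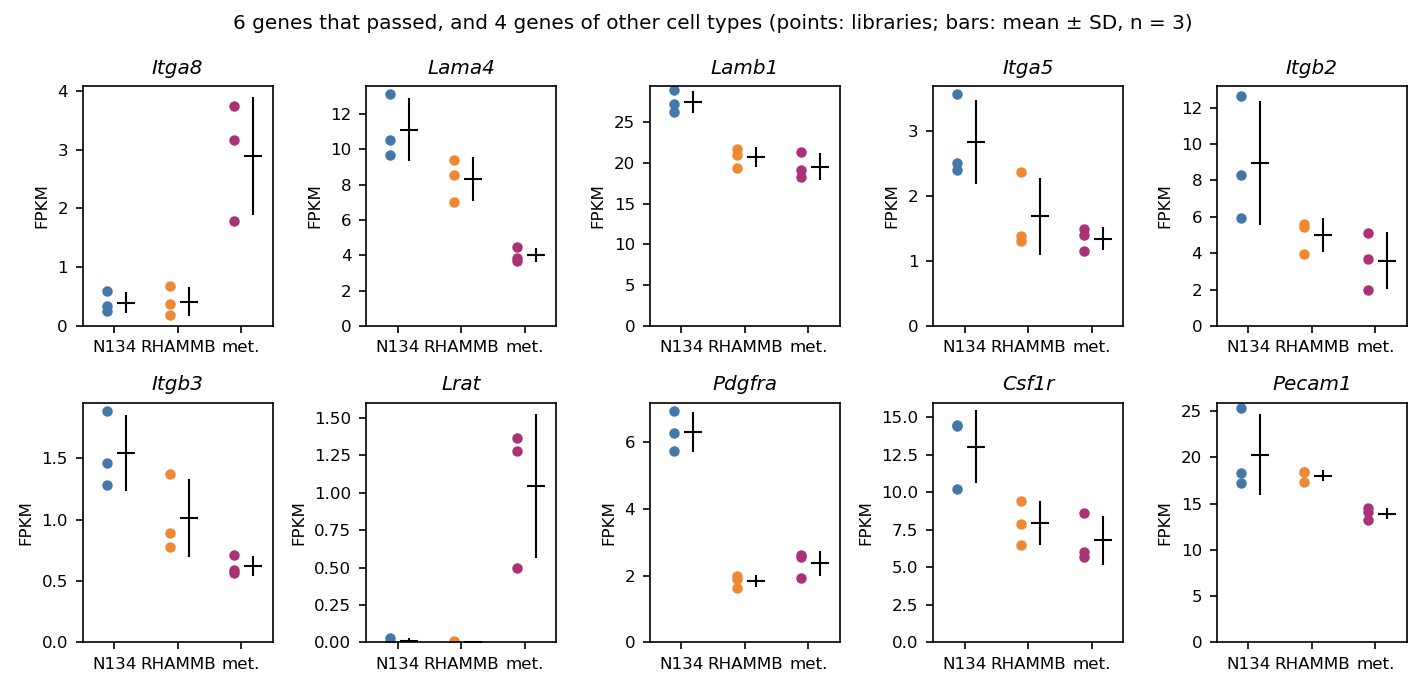
FPKM of the 6 genes that passed in a comparison (Itga8, Lama4, Lamb1, Itga5, Itgb2, Itgb3) and of 4 genes of other cells (Lrat, Pdgfra, Csf1r, Pecam1) in the 3 groups; points are libraries and bars are mean ± SD (n = 3). Itga8 and Lrat, both low genes, are higher in metastases than in every tumour. Lama4 is 3.68 to 4.47 FPKM in metastases against 7.01 to 13.1 in the tumours. Lrat was under the filter and was not tested. Of the 8 tested genes of its list, 1 passed in a comparison, Myh11, and the summed levels of the list overlapped between all groups.

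Among laminins, the clearest difference was in Lama4, the alpha chain of vascular and mesenchymal basement membranes (plus strand, GRCm38 chr10:38965515-39110188). It measured 10.5, 9.70 and 13.1 FPKM in N134 tumours, 8.57, 7.01 and 9.43 in N134-RHAMMB tumours and 3.87, 3.68 and 4.47 in metastases. The 3 groups formed 3 separate ranges, with metastases lowest. Lama4 fell by 1.27 on the log2 scale from N134 tumours to metastases (SE 0.16, limma adjusted p = 0.000395) and by 0.89 from N134-RHAMMB tumours to metastases (SE 0.16, limma adjusted p = 0.00547). Between N134-RHAMMB and N134 tumours the difference was -0.37 and did not pass (limma adjusted p = 0.366). Against N134 tumours the call held in every alternative that was run, and against N134-RHAMMB tumours in every one except the fit without N134-RHAMMB tumours 2 and 4 (-0.94, limma adjusted p = 0.0829).

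The make-up of the laminin alpha pool differed with it. Lama4 was the largest part of that pool in every library, so its share is not independent of its fall. Lama4 was 69.5% ± 6.42 of laminin alpha FPKM in N134 tumours, 66.4% ± 2.76 in N134-RHAMMB tumours and 41.2% ± 4.59 in metastases (SD, n = 3). Its share in metastases, 37.1 to 46.1%, lay below all tumours, whose shares were 63.3 to 76.2% (exact permutation p = 0.1 against each tumour group, the smallest that 3 against 3 can give, two-sided). Lama5, the alpha chain of mature vascular and epithelial laminins, was 7.88 to 14.1%, 10.7 to 22.99% and 21.1 to 30.2% of the pool, with 1.20, 2.15 and 1.94 FPKM in N134 tumours, 2.07, 1.11 and 3.42 in N134-RHAMMB tumours and 2.02, 3.003 and 2.39 in metastases. The levels of Lama5 overlapped between all groups. The summed alpha pool was 15.9 ± 1.11, 12.6 ± 2.27 and 9.74 ± 0.179 FPKM (SD, n = 3).

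**Figure D4:**
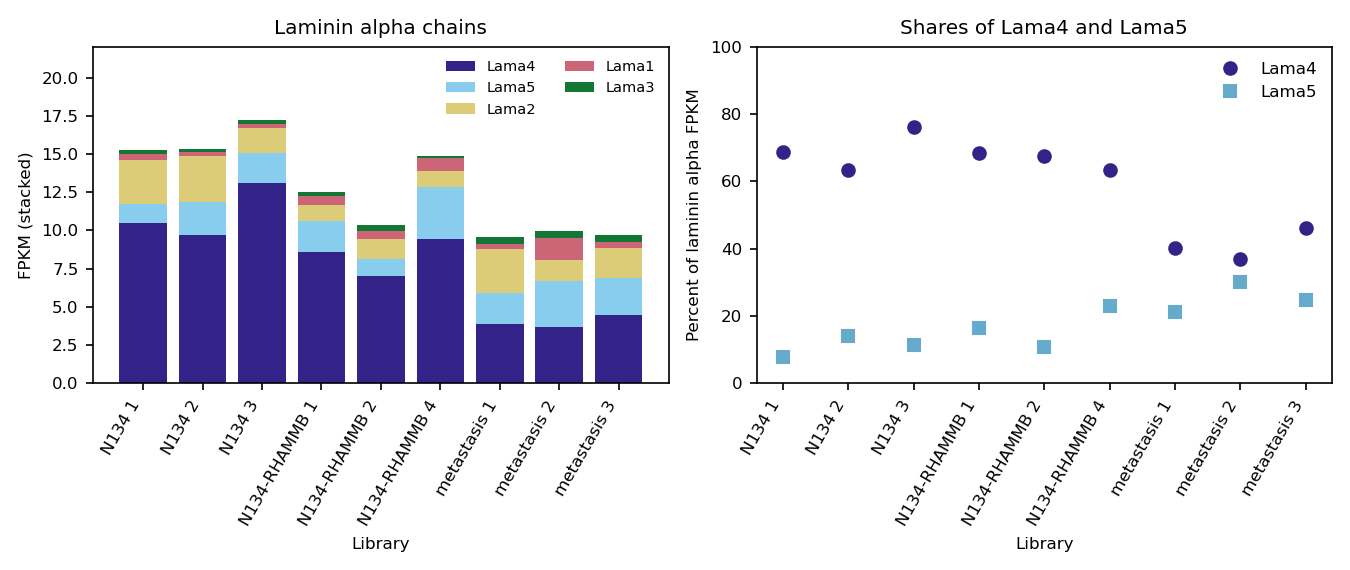
Left, stacked FPKM of the 5 laminin alpha chains in each of the 9 libraries; right, percent of laminin alpha FPKM held by Lama4 (circles) and Lama5 (squares) in each library. The metastases have Lama4 shares of 37.1 to 46.1%, below the 63.3 to 76.2% of the 6 tumours.

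Vessel and mesenchymal genes were set beside Lama4. None of 10 endothelial genes passed in any comparison (limma; 1, 3 and 1 at unadjusted p below 0.05 in the order above, and 2, 2 and 0 after adjustment with library weights), and their summed level was 115 to 146 FPKM in N134 tumours, 112 to 123 in those of N134-RHAMMB, and 99.4 to 131 in metastases. Lama4 divided by the endothelial gene Pecam1 was 0.383 to 0.761, 0.382 to 0.513 and 0.267 to 0.318 in the 3 groups, and divided by Cdh5 it was 0.812 to 1.56, 1.01 to 1.21 and 0.455 to 0.538. Both ratios were lower in metastases without overlap. Lama4 itself was lower there without overlap and no endothelial gene passed, so the ratios are not a separate result. Of 6 sinusoidal endothelial genes, 3 were called higher in metastases against each tumour group: Stab2, Clec4g and Oit3. These had reached the filter through metastases alone, so they had to differ in order to be tested. Stab1 was called lower against N134 tumours, a call lost in 6 fits without 1 library. The summed level of that list was 63.7 to 68.9, 41.0 to 64.1 and 57.4 to 79.6 FPKM in the 3 groups. Fibroblast genes were compared in the same way: 8 of 10 fell from N134 tumours to metastases, where 9.93% of all genes passed. Against N134-RHAMMB tumours 3 fell and 1 rose, where 6.56% of all genes passed. Their summed levels were 689 to 962, 339 to 558 and 204 to 421 FPKM. Against N134 tumours the call of Lum was lost in 6 fits without 1 library, that of Col3a1 in 2 and that of Col1a2 in 1. Against N134-RHAMMB tumours the call of Fap was lost in 5. From N134 to N134-RHAMMB tumours 2 fell, Pdgfra by 1.36 and Dcn by 1.07 (limma adjusted p of 0.0140 and 0.0365, named with their values in view; 10 of 10 passed with library weights). Both calls were lost without any 1 of the 3 N134 tumours and N134-RHAMMB tumours 2 and 4, and that of Dcn also without N134-RHAMMB tumour 1 (limma adjusted p of 0.0619 to 0.155 for Pdgfra and 0.0619 to 0.215 for Dcn). The fibroblast list holds Postn, which is also among the ligands below. The part of sinusoidal endothelium and of fibroblasts in the Lama4 result was not tested.

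Lama2, the alpha chain of muscle and nerve basement membranes, measured 2.92, 3.01 and 1.61 FPKM in N134 tumours, 1.06, 1.31 and 1.01 in N134-RHAMMB tumours and 2.87, 1.40 and 1.96 in metastases. N134-RHAMMB tumours were lowest without overlap, also in tumours 2 and 4, where skeletal muscle genes were high, and neither difference passed (-0.70, limma adjusted p = 0.233, against N134 tumours; 0.51, adjusted p = 0.285, for metastases against them). Lama1, the embryonic alpha chain, reached 1 FPKM only in metastasis 2 (1.40 FPKM, against 0.246 to 0.847 elsewhere). Lama3, an alpha chain of epithelial laminins, stayed under 1 FPKM in every library, as did the beta chain Lamb3 and the gamma chain Lamc3.

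Lamb1, the beta chain of most early and vascular laminins, measured 27.3, 28.9 and 26.2 FPKM in N134 tumours, 19.4, 20.9 and 21.8 in N134-RHAMMB tumours and 21.4, 18.2 and 19.1 in metastases. All N134 tumours lay above all 6 other libraries, and the latter overlapped between groups. Lamb1 fell by 0.47 on the log2 scale from N134 tumours to metastases (SE 0.11, limma adjusted p = 0.0187), and the difference between N134-RHAMMB and N134 tumours was close in size, -0.39, but did not pass (limma adjusted p = 0.18). The call was lost without any 1 of N134 tumours 1 and 2 and metastasis 3 (limma adjusted p of 0.0615 to 0.0857).

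Lamb2, the beta chain of mature and synaptic laminins, measured 12.4, 8.86 and 9.73 FPKM in N134 tumours, 6.59, 5.72 and 5.40 in N134-RHAMMB tumours and 8.66, 5.90 and 7.38 in metastases. N134 tumours were highest without overlap, and no difference passed. The summed laminin beta pool was 36.0 to 39.8 FPKM in N134 tumours, 26.1 to 27.2 in those of N134-RHAMMB, and 24.3 to 30.1 in metastases. Lamc1, the common gamma chain, measured 17.9, 14.3 and 14.7, then 14.4, 11.2 and 17.1, then 11.4, 13.8 and 11.7 FPKM in the 3 groups. It had no call, and all metastases lay below all N134 tumours.

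Promoter records of RefSeq (GRCm38.p6) were at hand for 24 of the 38 genes and for 3 of the 6 that passed. They are shown because Itga5 and Lamb1 were both lower in metastases than in N134 tumours and Itga8 was higher. Each run is the 250 bases before the transcription start, 5′ to 3′ on the gene's strand, at chr15:103366792-103367041 (minus strand) for Itga5, chr12:31265043-31265292 (plus strand) for Lamb1 and chr2:12301945-12302194 (minus strand) for Itga8; capitals mark GC boxes (GGGCGG, searched on both strands) and TATA boxes (TATAAA, both strands).
Itga5: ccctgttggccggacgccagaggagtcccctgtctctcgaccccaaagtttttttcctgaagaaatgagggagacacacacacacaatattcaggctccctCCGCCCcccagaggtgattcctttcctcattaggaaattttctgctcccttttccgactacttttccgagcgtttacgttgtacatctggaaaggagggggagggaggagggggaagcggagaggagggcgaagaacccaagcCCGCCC
Lamb1: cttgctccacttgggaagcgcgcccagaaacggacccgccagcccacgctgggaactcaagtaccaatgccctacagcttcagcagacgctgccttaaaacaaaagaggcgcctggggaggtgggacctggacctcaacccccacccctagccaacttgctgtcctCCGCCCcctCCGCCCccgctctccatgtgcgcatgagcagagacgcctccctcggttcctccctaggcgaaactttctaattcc
Itga8: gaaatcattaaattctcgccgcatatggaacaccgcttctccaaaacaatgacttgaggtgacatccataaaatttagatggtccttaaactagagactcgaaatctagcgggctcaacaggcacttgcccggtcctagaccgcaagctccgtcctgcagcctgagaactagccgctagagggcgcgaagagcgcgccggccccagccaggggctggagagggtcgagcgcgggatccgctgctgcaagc
The Itga5 and Lamb1 windows hold 2 GC boxes each and the Itga8 window none; 32.7% of 32841 promoters of the same length hold at least 1. None of the 3 holds a TATA box (12.4% of promoters do), and CCAAT (both strands) occurs once, in Lamb1 (33.9% of promoters). Their GC content is 55.6%, 62% and 56.4%. The CArG box of serum response factor, searched on both strands, was in none of the 3 (1.47% of promoters), and no match overlapped another motif.

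Other basement membrane genes were compared with the laminins they assemble with. None of 14 tested passed between N134-RHAMMB and N134 tumours (limma; 5 at unadjusted p below 0.05, and 7 after adjustment with library weights). In metastases 1 rose against N134-RHAMMB tumours, Col18a1 (1.20 ± 0.26 SE, limma adjusted p = 0.018; 17.9 ± 3.85 against 7.57 ± 3.44 FPKM, SD, n = 3). Against N134 tumours 5 fell: Smoc1 by 1.49, Col15a1 by 1.13, Npnt by 1.11 and Sparc by 0.73, to which Nid1, named with its values in view, adds a fall by 0.67 on the log2 scale. Of all genes, 6.56% passed between metastases and N134-RHAMMB tumours and 9.93% between metastases and N134 tumours. Nid1 links laminin to type IV collagen. Except for Npnt each of these calls was lost in several fits without 1 library. Col15a1 was called only when N134 tumour 3 or N134-RHAMMB tumour 4 was left out (limma adjusted p otherwise 0.052 to 0.173). Nid1 was called only when N134-RHAMMB tumour 2 or 4 was left out (limma adjusted p otherwise 0.0579 to 0.152). Without any 1 of N134 tumours 1 and 2 and metastasis 3, Sparc and Smoc1 lost their calls (limma adjusted p up to 0.112 and 0.0669), Sparc also without metastasis 2, and Col18a1 lost its call without any 1 of N134-RHAMMB tumours 1 and 2 and metastases 1 and 3 (0.0634 to 0.106). The type IV collagen genes Col4a1 and Col4a2, the main partners of the laminin network, overlapped in all comparisons, at 111 ± 10.99, 87.0 ± 16.4 and 99.7 ± 28.0 FPKM for Col4a1.

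Of the 4 tested laminin receptors outside the integrin family, none passed in any comparison (limma; 0, 0 and 1 at unadjusted p below 0.05, and 0 with library weights). The 2 with the largest differences between metastases and N134 tumours were Bcam, at -0.44, and the dystroglycan gene Dag1, at 0.22. Among 6 hemidesmosome and tetraspanin partners of laminin-binding integrins, 1 passed in each comparison with metastases. It was Col17a1, the transmembrane collagen of hemidesmosomes, with 10.1, 7.91 and 9.07 FPKM in N134 tumours, 33.4, 18.8 and 12.5 in N134-RHAMMB tumours and 0.474, 0.197 and 1.05 in metastases. Col17a1 fell by 3.77 from N134-RHAMMB tumours to metastases (SE 0.31, limma adjusted p = 1.33e-05) and by 2.70 from N134 tumours (SE 0.31, limma adjusted p = 0.000201), and both calls held in every alternative. Itgb4 measured 1.47 FPKM in N134-RHAMMB tumour 1, the highest of the 9 libraries for both genes, and 0.0836 and 0.0742 in tumours 2 and 4.

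On the intracellular side of adhesion, of 32 adaptor and focal adhesion genes, none passed between the subcutaneous groups (limma; 5 at unadjusted p below 0.05, and 4 with library weights), 1 rose from N134-RHAMMB tumours to metastases, and 1 rose and 1 fell from N134 tumours, beside 6.56% and 9.93% of all genes in these comparisons. Lims2, which encodes an adaptor of integrin-linked kinase, rose by 1.17 (SE 0.17, limma adjusted p = 0.00101) and by 0.77 (adjusted p = 0.0144), from 0.612 ± 0.205 and 1.13 ± 0.234 FPKM to 2.63 ± 0.365. Its paralog Lims1 fell by 0.42 from N134 tumours (limma adjusted p = 0.0411), a call lost without any 1 library other than N134-RHAMMB tumour 4 (adjusted p of 0.0533 to 0.144). The call of Lims2 against N134 tumours was lost without N134 tumour 3 or without metastasis 3 (limma adjusted p of 0.0677 and 0.0891).

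Ligands of integrins other than laminin were the partner group with the most calls. Of 21 tested, none passed between the subcutaneous groups (limma; 10 at unadjusted p below 0.05, and 9 with library weights). From N134-RHAMMB tumours to metastases 5 rose and 1 fell, and from N134 tumours 5 rose and 5 fell. Of all genes, 6.56% and 9.93% passed in these comparisons. The fibrinogen chains and vitronectin, plasma proteins made by hepatocytes, had the largest increases against N134 tumours: Fga by 6.76, Fgg by 6.47, Vtn by 5.81 and Fgb by 5.62 on the log2 scale. Hepatocyte genes, a list that shares Fga with the ligands, rose with them, and their part in these increases was not tested. Fga, Fgb and Fgg had reached the filter through metastases alone, so they had to differ in order to be tested. Vtn measured 1.02 ± 0.177 FPKM in N134-RHAMMB tumours and 128 ± 19.7 in metastases (SD, n = 3), and these are ligands of the receptors built on Itgav and Itga2b. Named with their values in view, Spp1 also rose, and Thbs2 fell by 2.41, Thbs1 by 2.04, Tnc by 1.88, Fbn1 by 1.10 and Postn by 0.99; the call of Fbn1 was lost without any 1 of the 3 N134 tumours and metastases 2 and 3 (limma adjusted p of 0.0509 to 0.134). Fn1, the ligand of the Itga5 receptor, measured 38.5 ± 3.31, 17.7 ± 6.40 and 34.6 ± 9.16 FPKM in the 3 groups and had no call.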

How the data were processed

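RNA-seq of 9 mouse tissue samples, 3 in each group, was analysed from a table of 22053 protein-coding rows. Its values are FPKM as deposited by the authors; the submitters' processing notes name bcl2fastq 2.19, STAR 2.5.2, Cufflinks 2.1.1 and GRCm38 without their roles. For strand and library preparation: not given in the sources used here. Read counts were not used, so depth was estimated from the steps of low values of single-transcript genes. Per symbol the row with the higher mean was kept (102 rows dropped). Of the rows, 7 were marked failed and 40 low in data; none was an integrin or laminin. limma 3.58.1 (R 4.3.3) was fitted to log2(FPKM + 1) of all 9 libraries in 1 model with an intensity trend, over 12854 genes at 1 FPKM or more in at least 3 libraries, with two-sided tests and Benjamini-Hochberg adjustment at 0.05; it was tested on simulated data first. By the rule fixed for naming, every integrin and laminin gene could be named; genes that passed, or with a group mean of at least 10 FPKM, were given per library; of each partner list at most 4 passing genes per comparison, otherwise the 2 largest differences. The values of 1 laminin gene are not reported here. The genes and lists were chosen with earlier results of these data known. Alternatives covered the pseudocount, the filter, scaling, weights, trend, groups in the model, the replicate block and leaving out each library; leaving out N134-RHAMMB tumours 2 and 4, and fixing the filter over all libraries, were added after the data were seen.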

Additional observations from a re-analysis of the deposited data

How the results depend on the processing

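Between N134-RHAMMB and N134 tumours the count of integrin and laminin genes that passed was 0 in all alternatives except library weights (10). Between metastases and N134-RHAMMB tumours the count of 2 became 1 under the stricter filter (mean of at least 5 FPKM, which Itga8 does not reach) and 5 with library weights, 1 to 2 without 1 library, 4 without metastasis 2 with the filter over all 9 libraries, and 0 without N134-RHAMMB tumours 2 and 4. Between metastases and N134 tumours the count of 6 became 2 under the stricter filter, 2 with only these groups in the model, 1 to 5 without 1 library, 2 without N134-RHAMMB tumours 2 and 4, and 2 without metastasis 3 with the filter over all 9 libraries. With the replicate block the counts were 0, 2 and 2 in the order of comparisons. The labels do not say whether same-numbered samples pair. Correlations of their deviations were -0.0027 to 0.102 over 7 pairs, and not every sample correlated best with its own number. With 3 samples per group this check cannot exclude a pairing. N134-RHAMMB tumour 4 stands alone under its number. No called difference changed sign, and of 61 that did not pass, 26 changed sign and 16 passed in at least 1 alternative. Over all genes, library weights called 1528 higher and 1101 lower between the subcutaneous groups, against 10 and 15. After quantile normalization the calls of metastases against N134 tumours were 758 higher and 821 lower, against 732 and 544, and of metastases against N134-RHAMMB tumours 630 and 314, against 648 and 195. Partner counts moved as well: basement membrane genes ranged from 1 to 6, other ligands from 6 to 10, macrophage genes from 4 to 9 and fibroblast genes from 5 to 9 for metastases against N134 tumours. The 11 genes under 1 FPKM in all libraries were left out by the filter, and the lowest of them rest on few fragments. Itgb6 was at most 0.0561 FPKM and Itgb2l at most 0.184. The causes were not tested.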
